A study of Homo sapiens with 24 samples.

Results

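Propionate and acetate were added to HT29 cells that were at the same time exposed to the death ligand TRAIL, and the 4 arrays of these cells (TRAIL+C3/C2) were compared with the 4 arrays of cells given TRAIL without the acids (TRAIL). These 8 arrays, chosen by their labelled treatment, are part of a series of 24 arrays in 6 groups of 4. HT29 cells come from a human colon adenocarcinoma and grow as an established line, and every treatment lasted 6 h. The TRAIL cells received Flag-tagged TRAIL at 100 ng/ml with anti-Flag M2 antibody at 2 µg/ml, and the TRAIL+C3/C2 cells received the same with propionate at 30 mM and acetate at 15 mM. Both groups thus carried TRAIL and its antibody, and differed by the acid mixture. Untreated cells (NT) and cells given the acids alone (C3/C2) served here to ask whether the acids acted alike without TRAIL. The remaining groups, given culture supernatant of Propionibacterium freudenreichii (SN) with or without TRAIL, entered the estimate of the spread and the choice of probes and were not compared.

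The methods describe 2 independent experiments in duplicate, and the labels do not say which of the replicates 1 to 4 were duplicates, so part of the spread between arrays may be technical and the p-values measure no more than that spread. All TRAIL arrays lay on slide 3 and all TRAIL+C3/C2 arrays on slide 4, so slide and acids cannot be told apart in this comparison. NT and C3/C2 shared slides 1 and 2, which makes the comparison without TRAIL one within slides. The 75th percentile of intensity, by which each array was scaled, was 630.6 to 682.7 in TRAIL and 453.4 to 517.5 in TRAIL+C3/C2, with no overlap (exact permutation test, two-sided, p = 0.0286, the smallest that 4 arrays against 4 allow). The array medians (27.27 to 31.62 against 27.64 to 31.55) overlapped, as did the mean log2 signals of the spike-in probes (11.91 to 12.18 against 11.97 to 12.2) and the share of probes well above background (49.84% to 53.47% against 50.29% to 53.79%). Within a group, any 2 arrays had a correlation over genes of 0.9927 to 0.9961, a description since genes do not count as replicates.

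TRAIL binds receptors with a cytoplasmic death domain, which recruit FADD and caspase-8. FLIP, the product of CFLAR, competes for the same complex, and in many colon cancer cells the signal must be amplified through the mitochondria, where BH3-only proteins release BAX and BAK from their survival partners. The same receptors also switch on NF-kB, a transcription factor that induces chemokines, cytokines and its own inhibitors. Propionate and acetate are the main acids made by dairy propionibacteria. Propionate is a short-chain fatty acid that enters cells through monocarboxylate transporters, signals through the receptors FFAR2 and FFAR3, and inhibits histone deacetylases, the enzymes that remove acetyl groups from histones.

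The labelled cell type was checked first. All 12 colon epithelial markers (EPCAM, keratins, cadherins, VIL1, CDX1, CDX2, LGALS4 and CEACAM5) were well above background on all 8 arrays, and their summed level relative to the scaling value was 1370 to 1510 in TRAIL and 1460 to 1510 in TRAIL+C3/C2. Markers of other cell types summed to far less, and their sums did not overlap between the groups. The leukocyte markers summed to 1.74 to 2.5 in TRAIL and 3.55 to 4.67 in TRAIL+C3/C2, the fibroblast markers to 0.123 to 0.181 and 0.547 to 0.72, and the endothelial markers to 0.231 to 0.278 and 0.405 to 0.431. Of 6 genes in each of these lists, 2 leukocyte (CD14 among them), 1 fibroblast (COL1A1) and 2 endothelial markers (PECAM1 and TEK, the latter well above background on 1 of the 8 arrays) were called higher. The defining markers COL1A2, COL3A1, PDGFRB and DCN of fibroblasts and KDR and CLDN5 of endothelium reached no level well above background on the 8 arrays, and the part of these markers in the other results was not tested.

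Levels below are log2 intensities minus the log2 of the array's own 75th percentile, so 0 is the level of the scaling value, and differences are TRAIL+C3/C2 minus TRAIL on the log2 scale, with the standard error (SE) of limma and p adjusted by the Benjamini-Hochberg method over 20703 genes. Calls required adjusted p under 0.05 together with a fold change of 2 or more. The words rose and fell are kept for called genes. In 34.1% of all genes every TRAIL+C3/C2 array lay above every TRAIL array, and in 26.5% every one lay below. Statements below that the groups of a gene did not overlap are to be read beside these shares. In a culture, a smaller number of cells with a transcript and less of the transcript per cell cannot be told apart.

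In TRAIL-treated cells, 3055 of 20703 genes (14.8%) were higher and 1276 (6.16%) lower with the acids, and 20.9% of genes were called in either direction. The rises reached further than the falls. By the difference of mean signals, 375 genes that rose and 16 that fell passed 8-fold, and 41 and 1 passed 32-fold. These counts include genes not well above background in 1 of the groups, for which the size of the change was not measured. Among the fourth of the genes with the lowest mean level, 25.4% rose and 6.38% fell, with a median difference of 0.356. Among the fourth with the highest, 6.11% rose and 2.86% fell, with a median of -0.0212. A total of 369 genes passed from well above background on no TRAIL array to all 4 TRAIL+C3/C2 arrays, and 139 passed the other way. A probe was kept if any of the 6 groups had it well above background on all 4 arrays. Dim genes could thus enter through the group where they were high, which bears on these shares and counts. With probes well above background on all 8 arrays, 1896 genes were higher and 975 lower. The balance of both directions depended on the scaling, as the plot of calls by scaling shows. Of all calls, 70.5% were higher with the 75th percentile, 72.1% after normexp background correction and 58.6% after quantile normalization, but 36.2% when arrays were scaled to their medians and 36.6% when scaled to spike-in probes. The median difference of all genes, 0.11 as reported here, shifted by -0.447 with array medians, by -0.441 with spike-in probes and by -0.159 with quantile normalization, so differences are to be read relative to that median. Of 203 genes followed through these scalings, 160 were called with the 75th percentile, and none of these changed direction under another scaling.

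**Figure D1:**
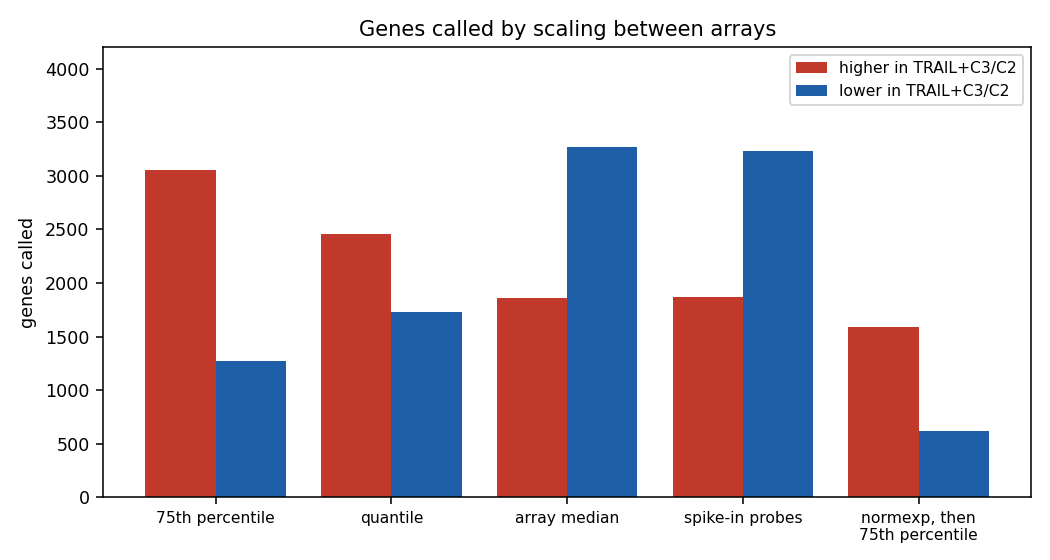
Number of genes called higher (red bars) and lower (blue bars) in TRAIL+C3/C2 than in TRAIL under 5 ways of scaling the arrays (horizontal axis). With the 75th percentile 3055 genes were higher and 1276 lower, and with the array median 1859 were higher and 3274 lower.

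Among named genes well above background on all 8 arrays, the largest rise was that of CEND1, which acts in the exit of neuronal precursors from the cell cycle. Its level was -3.58, -3.83, -3.67 and -3.60 on the TRAIL arrays and 3.94, 3.83, 3.58 and 3.51 on the TRAIL+C3/C2 arrays, a difference of 7.38 (SE 0.11, limma adjusted p = 1.19e-20). The groups lay far apart beside their SD of 0.12 and 0.20. KREMEN2, a receptor of the Wnt antagonists of the Dickkopf family, came next with levels of -3.39, -3.38, -3.08 and -3.27 in TRAIL and 3.14, 3.03, 2.92 and 2.94 in TRAIL+C3/C2. FSCN1, an actin-bundling protein, rose by 5.11, MICB, a ligand of the receptor NKG2D on natural killer cells, by 4.92, and PLIN5, a coat protein of lipid droplets, by 4.84. TNFSF9, the ligand of the costimulatory receptor 4-1BB, went from -2.50, -2.25, -2.14 and -2.02 to 2.58, 2.58, 2.45 and 2.59, a rise of 4.78. The other genes with the largest rises were VWCE (4.82), VPS37D (4.74), which encodes a subunit of the sorting complex ESCRT-I, VASN (4.71), a cell-surface protein that binds TGF-beta, RGL1 (4.59), an effector of Ras-like GTPases, ZMYND10 (4.52), an assembly factor of ciliary dynein, and LYPD3 (4.52), a cell-surface protein anchored by a lipid. MICB and VWCE each have another probe that was well above background on all 8 arrays, and it rose by 1.68 for MICB and was higher by 0.65 for VWCE, under a fold change of 2.

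Other genes were not well above background on any TRAIL array, so only a lower bound of their rise can be given. It set the mean of the TRAIL+C3/C2 arrays against a floor on each TRAIL array. The floor was the lowest signal of any probe well above background on that array, or the gene's own signal where higher. The limit for a single probe can lie above that lowest signal, so these bounds and those given later may be too high. ANGPTL4, a secreted inhibitor of lipoprotein lipase and a classical target of PPAR receptors, was at 1.67, 1.64, 1.55 and 1.63 with the acids and rose at least 132-fold. FBXO2, the substrate receptor of a ubiquitin ligase for glycoproteins, rose at least 86.5-fold, CREB3L3, a membrane-bound transcription factor of liver and intestine, at least 72.1-fold, and TMEM121 at least 60.8-fold. RRAD, a Ras-like GTPase, rose at least 46.4-fold. CBS, the enzyme that condenses homocysteine with serine, rose at least 43.1-fold, from levels between -5.93 and -5.32 to levels of 0.28, 0.15, -0.03 and -0.13. For all 6, the groups did not overlap, as was so in this direction for 34.1% of all genes.

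Falls were smaller. KCNE3, a regulatory subunit of potassium channels in the colon, stood at 2.68, 2.63, 2.60 and 2.56 in TRAIL and at -0.73, -0.75, -0.97 and -0.98 in TRAIL+C3/C2, a fall of 3.48 on the log2 scale (SE 0.12, limma adjusted p = 4.31e-16). LINC00261, a long noncoding RNA of endodermal tissues, changed from -0.49, -0.44, 0.73 and 0.58 to -3.95, -3.79, -2.66 and -2.92. Replicates 1 and 2 lay below replicates 3 and 4 in both groups, and the SD was 0.65 in TRAIL and 0.64 in TRAIL+C3/C2. STX19, a membrane fusion protein of epithelia, fell by 3.30 on the log2 scale, CLCF1, a cytokine of the interleukin-6 family, by 2.82, and EPC2, a subunit of a histone acetyltransferase complex, by 2.76. Among the other large falls were the ubiquitin ligases TRIM21 (-2.76), DTX3L (-2.63) and RNF135 (-2.47) and NMI (-2.56), a partner of STAT transcription factors. NOX1, the superoxide-generating oxidase of the colon, went from 1.36, 1.41, 1.67 and 1.69 to -1.64, -1.52, -0.78 and -0.66. Genes whose probe left the measurable range were RTP4 and RSAD2, both induced by interferon, which fell at least 5.00-fold, CRYM-AS1 (3.88-fold), MTL5, now named TESMIN (3.73-fold), TDRD3 (3.18-fold) and the interferon-inducible HERC6 (3.15-fold), each a lower bound. All 6 lost their call under normexp background correction. A second probe of MTL5, well above background on all 8 arrays, differed by 0.04 (limma adjusted p = 0.932).

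Among the receptors and ligands of the TNF family that carry or start death signals, 5 of 14 tested rose and 2 fell, with a median difference of 0.52. Over all genes 14.8% rose and 6.16% fell, the shares beside which this count and those of the lists that follow are to be read. TNFRSF10B, the death receptor DR5 of TRAIL, was at 2.95, 3.07, 2.94 and 3.22 in TRAIL and at 4.01, 4.07, 3.66 and 3.67 in TRAIL+C3/C2. The groups did not overlap, but the difference of 0.81 (SE 0.10) stayed under a fold change of 2. Without TRAIL the difference was 1.01, which was called. The other death receptor, TNFRSF10A, was lower by 0.61, and the decoy receptors TNFRSF10D and TNFRSF11B differed by 0.97 and -0.99, none of them called. The decoy TNFRSF10C was called higher, with no TRAIL array well above background and 3 of 4 with the acids, so the size of its rise was not measured. TNF itself rose by 2.89 (SE 0.24), from -1.78, -1.55, -1.27 and -1.29 to 1.37, 1.53, 1.40 and 1.36. FAS, the receptor of Fas ligand, fell by 1.16 on the log2 scale, and its 3 probes gave -1.11, -1.11 and -1.16. TNFRSF25 (1.43), TNFRSF1B (1.38) and CD70 (at least 3.62-fold) also rose, of which TNFRSF25 and TNFRSF1B lost their call when arrays were scaled to their medians or spike-in probes. The TNFRSF1B probe was well above background on 2 of 4 TRAIL arrays. A second probe of TNFRSF1B was so on no TRAIL array and differed by 3.48, so the size of this rise was not measured. The calls of TNFRSF10C, FAS, TNFRSF1B and CD70 were lost under normexp background correction. The transcript of TRAIL itself, TNFSF10, differed by 0.23 (adjusted p = 0.192).

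In the complex that these receptors assemble, 1 of 8 genes was called. CASP8, the initiator caspase of the extrinsic pathway, fell by 1.20 on the log2 scale (SE 0.08), from -0.05, -0.04, -0.16 and -0.11 to -1.21, -1.16, -1.44 and -1.35. Its dimmer probe fell by 0.76 on the log2 scale, and the mean of both probes missed the fold change of 2. FADD (-0.55), RIPK1 (-0.61) and CASP10 (-0.65) were lower without being called, and all 3 were called lower when arrays were scaled to their medians. The 2 other CASP10 probes were higher with the acids, by 0.59 and 0.38. CFLAR depended on the probe. The probe that stands for the gene (hg19 chr2:202030660-202030717) was at 0.26, 0.25, 0.22 and 0.57 in TRAIL and at 0.80, 0.88, 0.90 and 0.60 in TRAIL+C3/C2, a difference of 0.47. The 3 other CFLAR probes fell by 1.65, 1.47 and 1.57 on the log2 scale, at chr2:202000731-202000790, chr2:202025198-202025257 and chr2:202031892-202031951, each with no overlap between groups (exact permutation test, two-sided, p = 0.0286). Without TRAIL these probes differed by -1.66, -1.82 and -1.72 and the first by 0.26, so the probes parted in the same way in both settings. Which transcripts each probe reads was not tested.

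The inhibitors of apoptosis and their antagonists gave 1 rise and 2 falls among 10 genes (median 0.10). BIRC3, which encodes cIAP2 and is a target of NF-kB, rose by 1.66 (SE 0.12), from 2.20, 2.05, 2.16 and 2.31 to 3.95, 3.93, 3.73 and 3.74. XIAP, an inhibitor of caspases, was at 2.37, 2.26, 2.18 and 2.10 in TRAIL and at 1.52, 1.54, 1.64 and 1.61 in TRAIL+C3/C2. Its 2 probes differed by -0.65 and -0.70, short of a call with the 75th percentile and called when arrays were scaled to their medians or spike-in probes. NAIP fell by 1.16 on the log2 scale, while its second probe differed by -0.34 (limma adjusted p = 0.536). XAF1, an interferon-inducible antagonist of XIAP, fell at least 2.37-fold, from -3.04, -2.71, -5.14 and -4.67 to levels that none of the TRAIL+C3/C2 arrays placed well above background. Both falls lost their call under normexp background correction.

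Of the multidomain BCL2 family, 2 of 8 genes fell and none rose. BCL2L10, a survival protein, went from -1.19, -0.85, -1.40 and -1.19 to -3.99, -4.08, -3.58 and -4.01, a fall of 2.76 on the log2 scale. BCL2L1, which encodes BCL-XL, fell by 1.01 on the log2 scale, a call that was lost without TRAIL replicate 1 (-0.98), without TRAIL+C3/C2 replicate 3, and under quantile normalization or normexp. MCL1 (0.11), BAX (-0.21) and BCL2A1 (0.03) were not called, and BAK1, a pore-forming protein, was higher by 1.00 (SE 0.07), at 2.43 to 2.54 in TRAIL and 3.39 to 3.61 in TRAIL+C3/C2, just under the threshold, and was called without any one of 4 single arrays.

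The BH3-only genes, whose products bind the survival proteins, were higher in 5 of 8 cases and lower in none, beside 14.8% and 6.16% of all genes, with a median of 1.13. BMF rose most, from -1.85, -1.77, -1.24 and -0.98 to 2.40, 2.42, 2.29 and 2.32, a difference of 3.81 (SE 0.15, limma adjusted p = 3.22e-15). BBC3, which encodes PUMA, was at 2.45, 2.53, 2.76 and 2.86 and then at 4.84, 4.82, 4.98 and 4.92, and BIK rose from -0.66, -0.59, -0.71 and -0.67 to 1.58, 1.53, 1.59 and 1.55. In each case the groups lay far apart against their SD of at most 0.42. BCL2L11, which encodes BIM, rose by 1.16 and PMAIP1, which encodes NOXA, by 1.10, and both lost their call when arrays were scaled to their medians or spike-in probes, PMAIP1 also under normexp. One of the 3 BCL2L11 probes differed by 0.10 only. BID, the link from caspase-8 to the mitochondria, was lower by 0.65 and BAD higher by 0.20, neither called. Without TRAIL the acids raised 4 of these 8 genes. The exception was PMAIP1, with 0.11 without TRAIL and an interaction of 0.99 (adjusted p = 0.00013) that missed the fold change of 2.

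None of the 12 genes of the apoptosome, the effector caspases and DNA fragmentation was called (median -0.04). CASP9, the caspase of the apoptosome, was at 0.30 to 0.45 in TRAIL and 0.79 to 1.07 in TRAIL+C3/C2, and the largest difference of the list was the 0.83 of DFFA, the inhibitor of the caspase-activated nuclease. With no minimum fold change, 9 of the 12 had a limma p under 0.05, unadjusted as well as adjusted, CASP9 (0.57) among them. This count is to be read beside all 20703 genes, of which 14207 had an unadjusted limma p under 0.05 and 13597 an adjusted one. The plot of apoptosis genes sets these differences beside those without TRAIL.

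**Figure D2:**
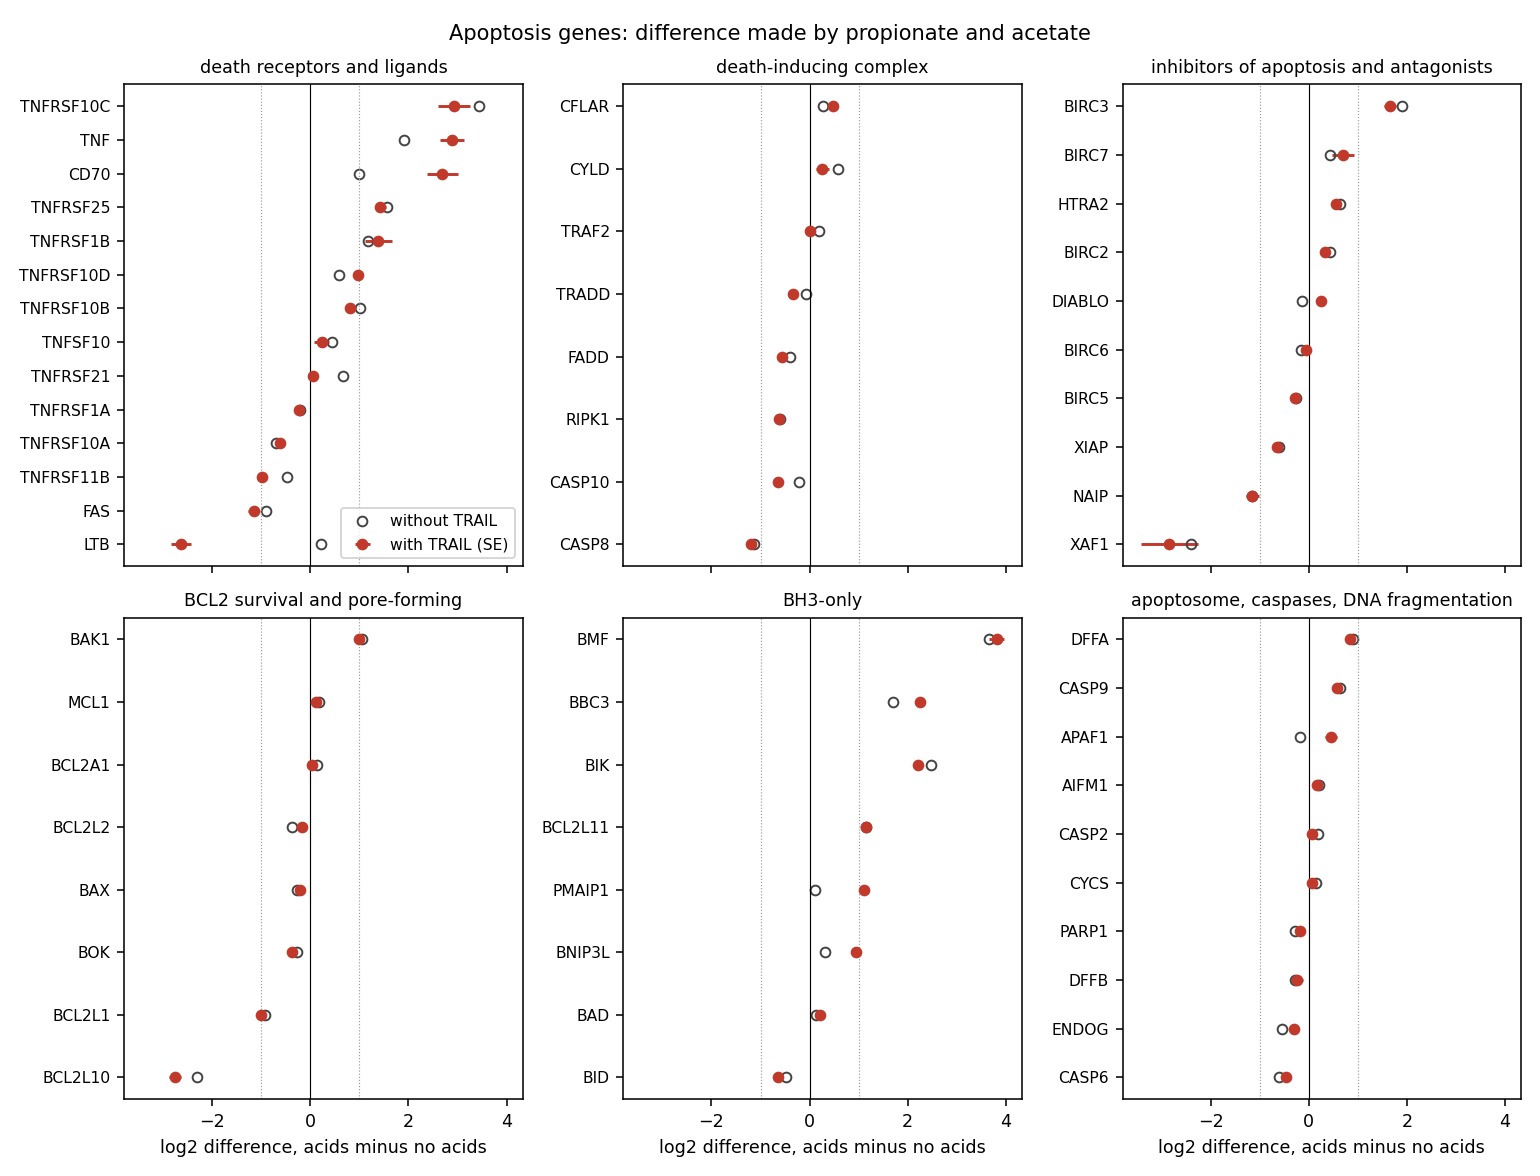
Log2 difference made by the acids (horizontal axis) for the reported genes of 6 apoptosis lists (vertical axis), with TRAIL as filled points with the SE and without TRAIL as open points; dotted lines mark a fold change of 2. BMF, BBC3 and BIK lie at 3.81, 2.24 and 2.22 with TRAIL, and no gene of the apoptosome list passes the lines.

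NF-kB and its targets were examined next, since TRAIL reaches both death and NF-kB through its receptors. Of 19 genes for subunits, inhibitors and kinases of NF-kB, 4 rose and 1 fell. NFKBIA, the inhibitor that holds NF-kB in the cytoplasm, rose by 1.62 (SE 0.13), and TNFAIP3, the ubiquitin-editing inhibitor A20, by 2.33 (SE 0.09). NFKBIZ, an atypical nuclear inhibitor, rose by 1.44, a call lost with array medians or spike-in probes, and MAP3K14, the kinase of the non-canonical branch, by 1.71. NFKB1, which encodes the p105 and p50 subunits, fell from 2.41, 2.47, 2.41 and 2.41 to 0.94, 0.96, 1.04 and 1.07.

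Of 14 chemokine genes 6 rose (42.9%, beside 14.8% of all genes) and none fell (median 0.45). CCL20, which attracts cells with the receptor CCR6, went from -0.05, -0.01, 0.44 and 0.83 to 4.45, 4.59, 4.60 and 4.72, a rise of 4.29 (SE 0.23). CXCL1 and CXCL2 attract neutrophils. The CXCL1 level was 2.63, 2.66, 2.89 and 3.14 in TRAIL and 5.64, 5.68, 5.83 and 5.83 in TRAIL+C3/C2, and a second probe of the gene gave a rise of 2.88 beside 2.92. The CXCL2 level was 0.01, 0.01, 0.55 and 0.83 and then 3.30, 3.43, 3.51 and 3.45. CXCL8, listed under its older symbol IL8, was at -2.61, -2.40, -2.25 and -1.79 and then at 0.04, 0.16, -0.01 and -0.05. In all of these, each array with the acids lay above each array without, as in 34.1% of all genes. CXCL3 (1.75) and CXCL6 (1.71) rose less, and the call of CXCL6 was lost under normexp background correction. These genes are close copies of each other, and hybridisation of one transcript to the probe of another was not tested.

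The motif GGAATTTCC, a form of the site that NF-kB binds, was searched on both strands in the 250 bases before the transcription start of each RefSeq promoter (GRCh38.p14), where 145 of 35116 promoters (0.413%) held it. It does not overlap another motif searched, since it was the only one. A few genes of this report were looked up. CXCL1, CXCL2, CXCL3, CXCL8, CXCL6 and ICAM1 held it, and CCL20, TNFAIP3, UBD, LTB and ITGAM did not hold this exact form. Other reported genes were not looked up, and other forms of the site were not searched. The sequences are shown to let the neighbouring chemokine promoters be compared, with the match in capitals and 80 bases given 5′ to 3′ on the strand of the gene, at chr4:73869273-73869352 (+) for CXCL1, chr4:74099236-74099315 (-) for CXCL2, chr4:74038730-74038809 (-) for CXCL3, chr4:73740449-73740528 (+) for CXCL8, chr4:73836558-73836637 (+) for CXCL6 and chr19:10270899-10270978 (+) for ICAM1, where the match is the reverse complement.
CXCL1: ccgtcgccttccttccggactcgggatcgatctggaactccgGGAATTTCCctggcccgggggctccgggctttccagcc
CXCL2: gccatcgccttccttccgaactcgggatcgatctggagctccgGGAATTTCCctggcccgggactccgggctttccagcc
CXCL3: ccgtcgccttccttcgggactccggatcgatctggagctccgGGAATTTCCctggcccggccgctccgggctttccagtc
CXCL8: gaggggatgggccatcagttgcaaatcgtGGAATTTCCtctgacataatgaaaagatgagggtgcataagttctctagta
CXCL6: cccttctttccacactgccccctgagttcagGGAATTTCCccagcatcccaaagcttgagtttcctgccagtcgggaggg
ICAM1: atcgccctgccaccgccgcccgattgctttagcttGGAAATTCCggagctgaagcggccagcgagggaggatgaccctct
Counted from the transcription start, the first base of the match lay at position -78 in CXCL1 and CXCL3, -77 in CXCL2, -91 in CXCL8, -89 in CXCL6 and -186 in ICAM1. A match of letters is a description and was not measured as binding.

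Interleukins and growth factors of leukocytes gave 7 rises and 1 fall among 18 genes (median 0.66). IL1B, the secreted form of interleukin-1, was between -5.89 and -5.15 in TRAIL and at -1.06, -1.08, -1.08 and -1.09 with the acids, a rise of 4.41. Its TRAIL levels lay beside those of CBS, for which only a lower bound was given. IL17C, an epithelial cytokine, rose from -1.01, -0.89, -0.88 and -0.68 to 2.37, 2.34, 1.70 and 1.57. CSF3, the granulocyte growth factor, rose at least 3.82-fold, and IL11 by 3.62. LIF, a cytokine of the interleukin-6 family, fell by 1.78 on the log2 scale. The receptors of the NOD family and the inflammasome gave 1 rise and 4 falls among 16 (median -0.41). NLRP3, the sensor of the inflammasome, fell by 1.90 on the log2 scale, from -2.48, -2.61, -2.41 and -2.10 to -4.62, -4.15, -4.46 and -3.96. The receptors TLR3 (-1.58) and TLR4 (-1.66) fell as well, and these 3 were also called lower with the acids alone. The falls of NLRP3 and TLR3 lost their call under normexp.

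Whether TRAIL altered the response to the acids was asked by setting the difference of TRAIL+C3/C2 and TRAIL beside that of C3/C2 and NT, which share no array. Without TRAIL, 2784 genes (13.4%) were higher and 1279 (6.18%) lower with the acids, 19.6% in either direction, and with slide as a block 2770 (13.4%) and 1281 (6.19%) were. Of the genes called higher with TRAIL, 81.0% were also called higher without it, and of those called lower 79.2% were also lower, which makes 2474 and 1010 genes called the same way in both. Over all genes, both differences followed each other with r = 0.936 and a slope of 0.959, given as a description across genes that share arrays and are not independent. Most of the genes called with TRAIL only had the same sign without it. The 581 genes called higher with TRAIL only had a median difference of 0.75 without it, above 0 in 545, and the 266 called lower with TRAIL only had a median of -0.85, below 0 in 252. One gene was called in opposite directions.

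**Figure D3:**
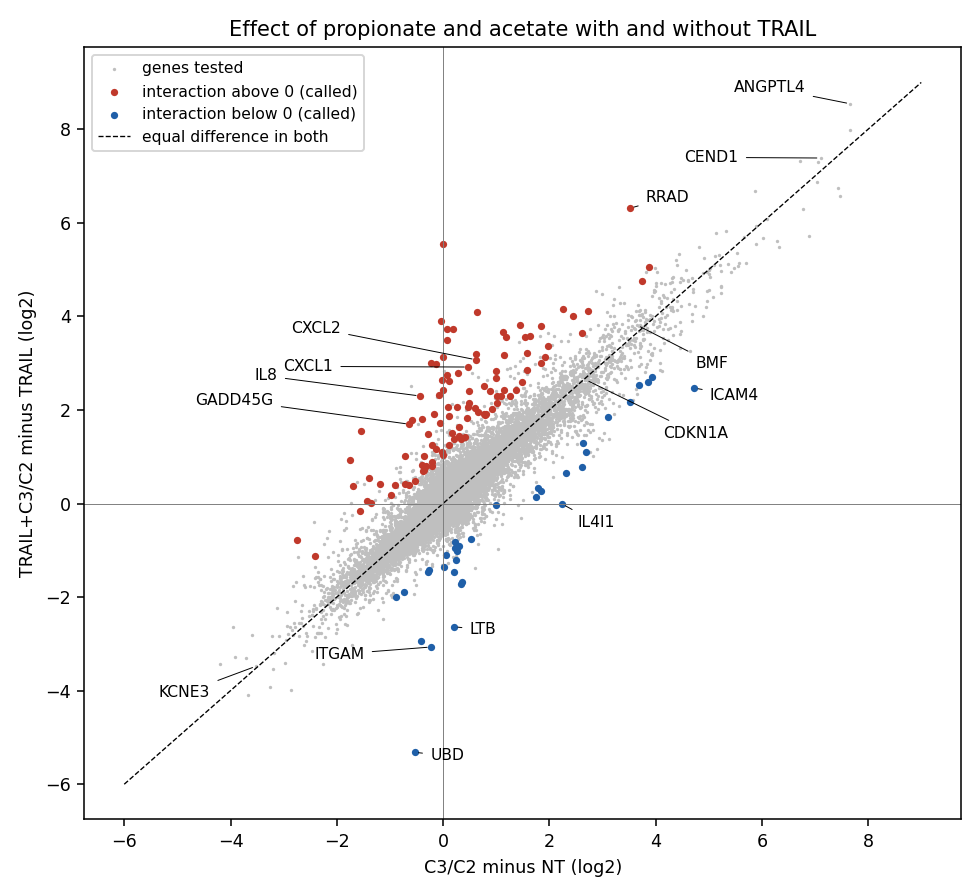
Log2 difference made by the acids without TRAIL (horizontal axis) and with TRAIL (vertical axis) for 20703 genes (grey points); genes whose differences differed by the interaction test are coloured. Most genes lie along the dashed line of equal difference (r = 0.936), while CXCL1, CXCL2 and IL8 lie above it and UBD, LTB and ITGAM below.

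The test of the difference itself, the interaction, called 102 genes (0.493%) above 0, that is with a larger or more positive difference in the presence of TRAIL, and 34 (0.164%) below 0. Its SE had a median of 0.153, larger than the 0.108 of the comparison in TRAIL-treated cells. Of the 102 genes, 82 were called higher in TRAIL+C3/C2 than in TRAIL, and of the 34 genes, 15 were called lower. With the replicate number as a block, 53 genes were below 0.

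Of the 102 genes with a positive interaction, 3 were in the chemokine list. CXCL1 was at -0.89, -0.90, -1.03 and -1.25 in NT and -0.43, -0.57, -0.66 and -0.53 in C3/C2, a difference of 0.47 that was not called, beside the rise of 2.92 with TRAIL, and the interaction was 2.45 (limma adjusted p = 1.5e-07). CXCL2 followed with 0.62 and 3.07, an interaction of 2.45 as well, and IL8 with 2.73, although no array of NT or C3/C2 was well above background for IL8. ICAM1, the adhesion molecule that holds leukocytes to cells, rose by 2.06 with TRAIL (levels of 0.37, 0.53, 0.52 and 0.81 and then 2.71, 2.74, 2.52 and 2.52) beside 0.47 without, an interaction of 1.60. CXCL1 and CXCL2 were already above NT in TRAIL, by 3.85 and 3.04. IL8 was above NT as well, by a size that was not measured, since no NT array was well above background for it. This comparison of TRAIL with NT crosses slides and shares their arrays with the interaction. The interactions of CCL20 (0.89, limma adjusted p = 0.16) and TNF (0.97, limma adjusted p = 0.15) were not called.

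Genes of other kinds were among those with a positive interaction. GADD45G, a growth-arrest gene, was at 0.85 to 1.10 in NT and 0.30 to 0.48 in C3/C2 but rose from 0.93, 1.04, 1.28 and 1.27 in TRAIL to 2.49, 2.50, 3.17 and 3.14, an interaction of 2.33. NCF1, a subunit of the phagocyte oxidase with near-identical copies in the genome that its probe may also read, rose by 3.81 with TRAIL and 1.44 without, and its second probe was higher by 0.86 with TRAIL. TNFRSF4, the receptor OX40, rose by 3.80 and 1.85. C3, the central complement protein, had a positive interaction of 1.53, no longer called when arrays were scaled to spike-in probes. RRAD was also called, but no array of NT or TRAIL was well above background for it, so the size of its interaction was not measured.

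Some of the 34 genes below 0 are described next. UBD, a ubiquitin-like protein induced by inflammatory cytokines, was at -0.43, -0.46, 0.21 and -0.01 in TRAIL, was well above background on 1 of 4 TRAIL+C3/C2 arrays (levels of -5.60, -4.84, -5.45 and -6.08) and on none of NT or C3/C2. It was called lower, with a difference of -5.32 on the log2 scale (SE 0.47, limma adjusted p = 2.51e-09). Since most TRAIL+C3/C2 arrays were not well above background for it, the size of this fall was not measured. UBD is the gene counted above as the only fall of at least 32-fold. LTB, a membrane-bound cytokine that signals to NF-kB, was at 0.27, 0.56, 0.60 and 0.69 and fell to -2.11, -2.30, -1.91 and -2.10, while NT (-5.12 to -4.57) and C3/C2 (-5.03 to -4.29) overlapped, and its interaction was -2.84. ITGAM, the integrin CD11b, fell from -1.58, -1.67, -1.96 and -1.66 to -4.70, -4.62, -4.89 and -4.94, beside -0.23 without TRAIL. PI3, the protease inhibitor elafin, fell by 1.46 on the log2 scale with TRAIL, beside a difference of 0.20 without. IL4I1, a secreted amino acid oxidase, was a case of another kind. It rose by 2.24 without TRAIL, from -2.59 to -2.07 in NT to -0.27 to 0.01 in C3/C2, and was at 2.40, 2.54, 2.46 and 2.53 in TRAIL and 2.68, 2.67, 2.24 and 2.30 with both, a difference of -0.01. MCAM, an adhesion molecule, showed the same order, with 1.84 without TRAIL and 0.26 with it. PTGS2, the inducible cyclooxygenase, fell from -2.46, -2.30, -1.25 and -0.90 to -3.18, -3.06, -3.15 and -2.97, and its interaction of -1.37 was no longer called without any one of 6 single arrays (-1.41 to -1.09). The interactions of ICAM2 (-1.46, and -1.37 to -1.30) and CD70 (1.70, and 1.59 to 1.75) were likewise no longer called without any one of 4 arrays each, and that of CDKN2B (1.05) without TRAIL replicate 1 (0.89) or TRAIL+C3/C2 replicate 3 (0.99). These 4 interactions were not called under normexp background correction either. Scaled to spike-in probes, those of ICAM2, CD70 and CDKN2B were not called, and scaled to array medians that of CDKN2B was not. The plot of levels by group shows 8 of these genes.

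**Figure D4:**
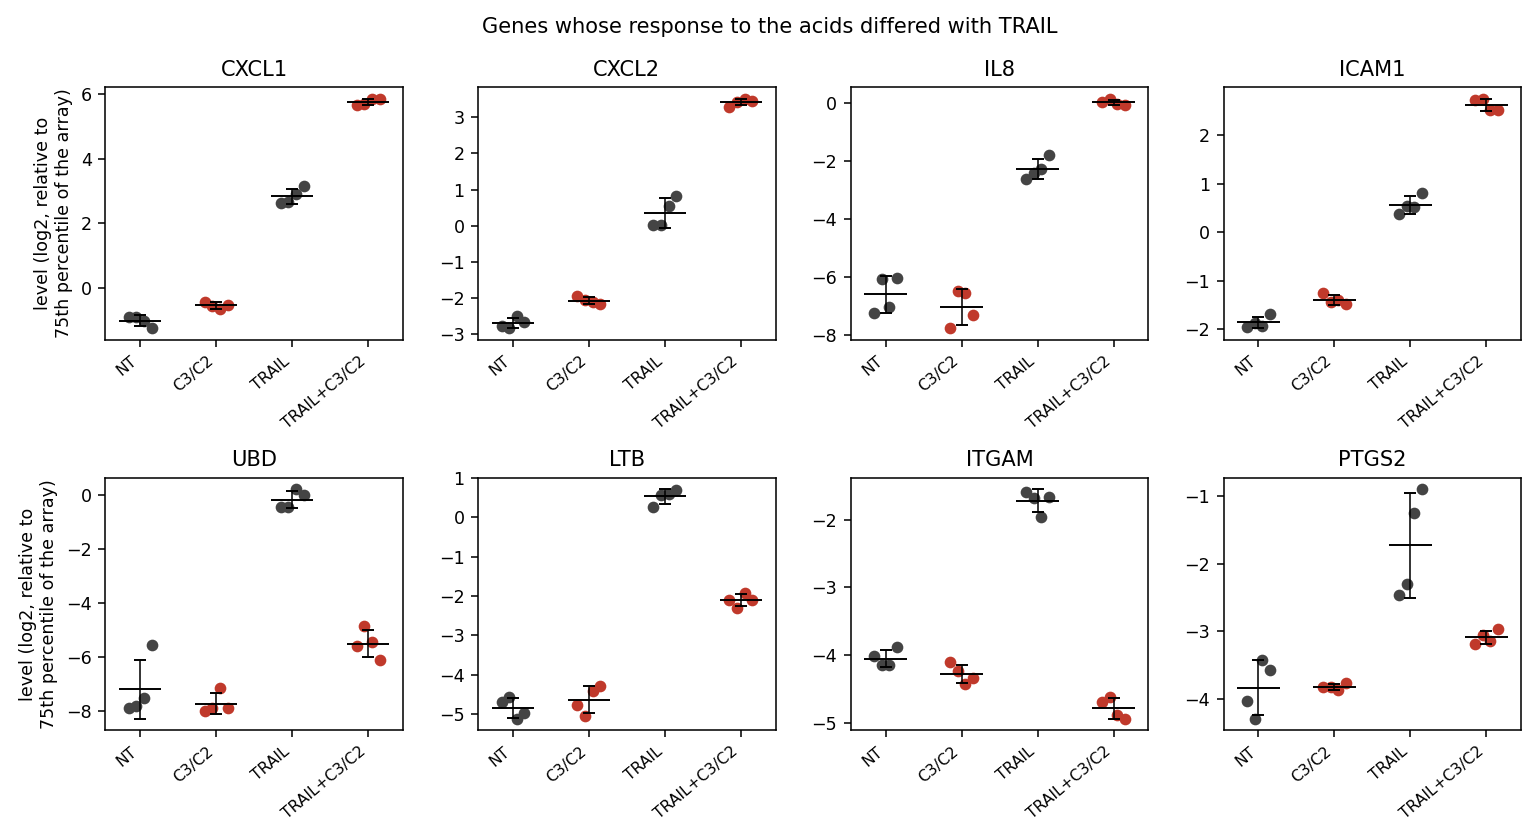
Level of 8 genes (log2, scaled to the 75th percentile of each array) in NT, C3/C2, TRAIL and TRAIL+C3/C2; points are the 4 arrays of a group, bars the mean and error bars the SD. CXCL1, CXCL2, IL8 and ICAM1 are highest in TRAIL+C3/C2, and UBD, LTB, ITGAM and PTGS2 are highest in TRAIL.

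Among 18 CDK inhibitors and cyclins, which brake and drive the cell cycle, 6 rose and 1 fell (median -0.05). CDKN1A, which encodes the CDK inhibitor p21, was at -2.92, -2.69, -2.88 and -2.72 and rose to -0.19, -0.23, -0.18 and -0.03, a difference of 2.65 (SE 0.12). CDKN1C, which encodes p57, rose by 3.56, CDKN2B, which encodes p15, by 2.43 and CDKN2D, which encodes p19, by 2.03. CCNA2, the cyclin of S and G2 phase, fell by 1.19 on the log2 scale. Of 38 genes of DNA replication, 1 rose (E2F2, 1.53) and 2 fell (MCM6, -1.24, and GINS3, -2.11), and of 29 mitotic genes 3 fell, namely PLK1 (-1.30), NDC80 (-1.16) and TTK (-1.10), the last not called under normexp or without TRAIL replicate 2 (-0.996). The mitotic list had a median of -0.44 with 24 of 29 values below 0, beside a median of 0.11 and 8859 of 20703 values below 0 over all genes. Growth-arrest genes gave 3 rises among 10, with GADD45B at -0.59, -0.48, -0.40 and -0.50 and then 3.57, 3.51, 3.91 and 3.86. The p53 targets gave 7 rises and 2 falls among 21 (median 0.36), and those that rose included CDKN1A, BBC3, SESN2 (2.05), a stress-induced inhibitor of mTOR signalling, and GADD45A (1.62).

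Transcripts were measured for the classical histone deacetylases and for the sirtuins, deacetylases of another kind that depend on NAD. Of these 17 genes, HDAC3 (1.08), HDAC10 (1.05), SIRT2 (1.16) and SIRT4 (at least 13.9-fold) rose and SIRT5 (-1.18) fell. The first 3 of these lost their call when arrays were scaled to their medians or spike-in probes, HDAC10 also under normexp and without TRAIL replicate 3 (0.96). Genes known to respond to deacetylase inhibitors gave 5 rises and no fall among 15 (median 0.63). TUBB3, the neuronal beta-tubulin, rose by 3.25 and GLRX, a glutaredoxin, by 2.29. Genes of neurons and vesicles rose in 9 of 20 tested cases and fell in 1 (median 0.76), with RAB3A, a GTPase of synaptic vesicles, at -1.64, -1.77, -1.90 and -2.09 and then 1.48, 1.26, 1.30 and 1.22. The single fall was that of STX19, and the same 9 genes were higher and the same 1 lower without TRAIL.

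Genes for the uptake and use of the acids themselves gave few calls, with 2 rises and 2 falls among 21 (median 0.01). SLC16A3, the lactate exporter MCT4, rose by 1.53 and ACSS2, which activates acetate to acetyl-CoA, by 1.13. The receptor FFAR2 fell by 1.44 on the log2 scale, from -3.82, -3.87, -2.73 and -2.66 to -4.60, -4.80, -4.88 and -4.58, and MMAA, which serves the cobalamin-dependent step of propionate breakdown, by 1.95. The call of ACSS2 was lost when arrays were scaled to their medians or spike-in probes, and those of FFAR2 and MMAA under normexp. The targets of PPAR receptors and fatty acid oxidation gave more calls, with 10 rises and 2 falls among 30 (median 0.44). Besides ANGPTL4 and PLIN5, these were PLIN2 (1.62) and PLIN4 (1.94), which coat lipid droplets, PDK4 (1.59), a kinase that shuts off pyruvate dehydrogenase, the fatty acid carrier CD36 (at least 2.43-fold), the receptors PPARA (1.59) and PPARD (1.38) and the coactivator PPARGC1A (1.26). PPARD and PPARGC1A were not called when arrays were scaled to their medians or spike-in probes, CD36 and PPARGC1A not under normexp, and a second probe of PPARA differed by 0.32. Among 30 genes of glucose transport and glycolysis, 6 rose and none fell. SLC2A4, the insulin-responsive transporter GLUT4, was not well above background on any TRAIL array and was at -0.75, -0.95, -1.12 and -1.15 with the acids, a rise of at least 21.6-fold. PFKFB4, which makes the activator of phosphofructokinase, rose by 2.25 and ENO2, the neuronal enolase, by 2.03.

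Interferon-inducible genes split, with 4 rises and 5 falls among 23 (median -0.01). IFIT3 fell from 1.24, 1.38, 0.45 and 0.31 to -0.67, -0.55, -1.54 and -1.44, and IFI44L from -1.27, -0.73, -3.06 and -3.27 to -4.30, -3.85, -5.41 and -5.86. In both groups replicates 1 and 2 lay above replicates 3 and 4 for these genes, and IFI44 (-1.63), OAS2 (-1.96), IRF9 (-1.18), RTP4 and XAF1 followed the same order in TRAIL, with SD of up to 1.27. OASL (1.52), IRF7 (1.37) and IRF1 (1.44) rose, as did ISG15 (1.00), whose call was lost without any one of 4 single arrays (0.91 to 0.97). Scaled to array medians or spike-in probes, IRF7, IRF1 and ISG15 were not called. Among 14 genes of antigen presentation 1 was called, which was UBD. The 11 metallothioneins gave no call (median -0.23), though 8 had a limma p under 0.05, unadjusted and adjusted alike. Over all 20703 genes, 14207 had such an unadjusted p and 13597 an adjusted one. Of 8 genes of the aryl hydrocarbon receptor pathway 4 rose, among them CYP1A1 (2.57), the monooxygenase by which the pathway is known, the receptor AHR (1.42) and its repressor AHRR (1.43), the latter 2 not called when arrays were scaled to their medians or spike-in probes, AHRR also not under normexp. Immediate early genes gave 7 rises and 1 fall among 16 (median 0.75), with NR4A3, an orphan nuclear receptor, at least 7.22-fold higher and FOSB, a subunit of AP-1, higher by 2.73. Of 28 genes of ribosome biogenesis 2 fell, UBTF (-1.91), the transcription factor of ribosomal RNA genes, and PPAN (-1.18). Values were below 0 in 24 of the 28 (median -0.32), beside 8859 of 20703 over all genes.

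The genes of intestinal differentiation gave 3 rises among 21 (14.3%, beside 14.8% of all genes), namely the transcription factor CDX2 (1.37), the brush-border peptidase ANPEP (1.98) and the carbonic anhydrase CA4 (at least 2.02-fold). CDX2 was not called when arrays were scaled to their medians or spike-in probes, and ANPEP and CA4 were not under normexp. Wnt targets and antagonists gave 5 rises and 2 falls among 15. DACT3, an inhibitor of Wnt signalling, rose from -5.49, -5.13, -4.84 and -4.65 to 2.89, 2.78, 3.13 and 3.06. Its probe was not well above background on every TRAIL array, so the size of this rise was not measured. LGR5 (-1.14), a receptor of intestinal stem cells, and RNF43 (-1.51), a ubiquitin ligase that removes Wnt receptors, fell, LGR5 not under normexp. In the stress response to amino acid shortage, 7 of 22 genes rose and 2 fell, with CBS and SESN2 up and SLC7A11, the cystine transporter, down from 4.07, 4.16, 4.09 and 4.22 to 2.00, 2.16, 2.44 and 2.48. Autophagy and lysosome genes gave 6 rises and 1 fall among 26, led by MAP1LC3A (2.97), which encodes an LC3 protein of the autophagosome membrane. Of the lists not described so far, hypoxia targets gave 5 rises among 15 (median 0.64), MAP kinase phosphatases and Sprouty genes 5 rises and 1 fall among 14 (0.28), heat shock proteins 3 rises among 14 (-0.02), cholesterol genes 2 rises among 25 (0.24), the unfolded protein response 1 fall among 14 (0.13), NRF2 targets 1 rise and 1 fall among 15 (-0.23) and aminoacyl-tRNA synthetases 1 fall among 20 (-0.24). DUSP10 (2.79) and DUSP1 (2.33), phosphatases that switch off MAP kinases, were the phosphatases with the largest rises, and HMOX1 (1.80), which breaks down haem, was the NRF2 target that rose. The plot of gene lists shows the members and medians of 13 lists.

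**Figure D5:**
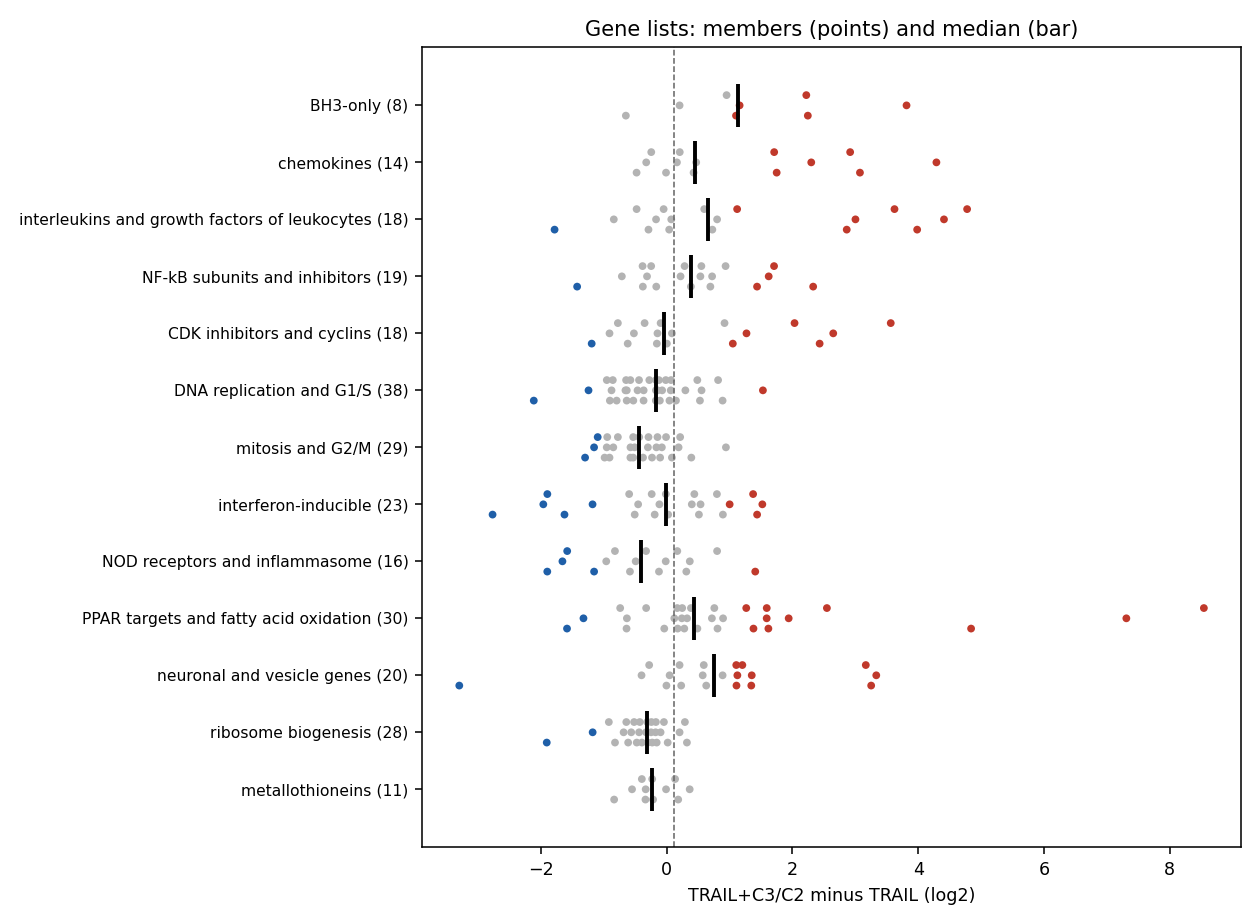
Log2 difference between TRAIL+C3/C2 and TRAIL (horizontal axis) for each member of 13 gene lists (vertical axis, number tested in parentheses); red points rose, blue points fell, grey points were not called, black bars are list medians and the dashed line is the median of all genes. The BH3-only list has the highest median, 1.13, and the mitotic list the lowest, -0.44.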

How the data were processed

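RNA of 24 HT29 cultures was hybridised by the authors to 1-colour human gene expression arrays and read with Agilent Feature Extraction 10.7.3.1, per the labels on build hg19. The intensity values deposited per spot were background-corrected by that software. A deposited table normalized by the authors held the same signals divided by the median of each array (largest gap on the log2 scale 1.2e-05), and served as an alternative. Its 24 columns of detection flags were not used.

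Processed signals of 58717 non-control spots, without outlier flags (190 to 301 spots on each of the 8 arrays), were divided by the 75th percentile of the array, put on a log2 scale and averaged over the spots of 50599 probes. A probe was kept where some group had it well above background on each of its 4 arrays (27957 probes), and the probe with the highest mean over all arrays stood for its gene. limma 3.58.1 in R 4.3.3 was fitted to 6 group means over 24 arrays (18 residual degrees of freedom), and files were read with the package data.table (version 1.17.8). Genes with adjusted p under 0.05 and a fold change of at least 2 were called. The number of arrays limits the precision. The fit was tested on simulated data.

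Named genes were the 12 largest rises and 12 largest falls well above background on all 8 arrays with no overlap of groups, the 6 largest lower bounds each way, the 5 largest interactions each way among genes well above background on 16 arrays, all genes of the apoptosis lists and of the study's apoptosis displays, and up to 4 called members of each gene list with its defining members. ICAM1, ICAM2, IL8, UBD, ITGAM, PTGS2, C3, IL1A, CDKN2B and IL4I1 are discussed for their interaction, those outside the rule after their values were seen. Members and lists were chosen with earlier results of these data known. Some genes that these rules name are not reported here.

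Scaling, background correction, the filter on dim probes, the arrays in the fit, the probe for a gene, the threshold, the replicate number or the slide as a block, and single arrays left out were the alternatives. Arrays with the same number in TRAIL and TRAIL+C3/C2 correlated in their deviations from the group means with r of 0.106, 0.127, 0.155 and 0.0802, and nothing in the labels ties the numbers, which were therefore not taken as pairs. Across these groups replicates 1 and 2 correlated best with each other, as did 3 and 4. If these were the duplicates of 1 experiment each, the 4 arrays of a group would stand for 2 independent experiments. The fit took them as 4 samples, and a block for experiment was not tested. For NT and C3/C2, r was higher, at 0.475, 0.336, 0.238 and 0.238, and these arrays were not paired either.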

Additional observations from a re-analysis of the deposited data

Results flagged for a closer look

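For 21 genes the effect of the acids differed between TRAIL-treated and other cells by the interaction test of limma. The interaction was above 0 for RRAD (2.791), IL8 (2.734), CXCL2 (2.455), CXCL1 (2.446), NCF1 (2.367), GADD45G (2.33), TNFRSF4 (1.952), CD70 (1.696), ICAM1 (1.596), C3 (1.533), IL1A (1.162), NFKBIZ (1.142) and CDKN2B (1.051). It was below 0 for UBD (-4.784), LTB (-2.841), ITGAM (-2.841), IL4I1 (-2.248), PI3 (-1.659), MCAM (-1.581), ICAM2 (-1.457) and PTGS2 (-1.37). For RRAD, IL8, CD70, IL1A and UBD at least 1 of the 4 groups had no array well above background, so the size of their interaction was not measured. The interactions of NFKBIZ and CDKN2B were not called with array medians, spike-in probes or normexp, and that of IL1A not with spike-in probes or normexp. The arrays with TRAIL lay on slides 3 and 4 and those without on slides 1 and 2, so a difference between slides 3 and 4 cannot be told apart from it.

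In 12 of 406 groups of 4 arrays tested (2.96%), 1 array stood far from the other 3, with a gap above 0.829 of the group's range, where chance gives about 1 in 20. In TRAIL these were CFLAR (0.905), CYCS (0.9) and SESN2 (0.873) on replicate 4 and NFKB1 (0.93) on replicate 2. In TRAIL+C3/C2 these were TNFSF9 (0.959), CLCF1 (0.883), DIABLO (0.855) and BCL2L11 (0.856) on replicate 3, RGL1 (0.88), XAF1 (0.855) and BAX (0.866) on replicate 2, and APAF1 (0.829) on replicate 1.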

How the results depend on the processing

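The counts depended on scaling, background correction, filter and threshold. Scaled to array medians, 1859 genes were higher and 3274 lower, 64 interactions were below 0, and 1590 genes were higher and 2158 lower in both settings. The deposited normalized table gave the same counts. Scaled to spike-in probes, 1866 were higher and 3229 lower, 43 interactions were above and 53 below 0, and 1751 genes were lower in both settings. After normexp correction 1592 were higher and 615 lower, 33 interactions were above and 10 below 0, and 1311 and 491 genes were called alike in both settings. With probes well above background on all 8 arrays, 1896 were higher, 50 interactions were above and 15 below 0, and, rounded, 1.6e+03 genes were higher in both settings. With no minimum fold change 7718 were higher and 5879 lower, 361 interactions were above and 235 below 0, and 6372 and 4982 genes were called alike in both settings.

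With the replicate number as a block, 3055 genes were higher and 1282 lower, and 127 interactions were above and 53 below 0. Without single arrays, 2976 to 3113 genes were higher and 1254 to 1317 lower, 83 to 119 interactions were above and 29 to 40 below 0, and 2426 to 2485 and 994 to 1015 genes were called alike in both settings. With NT and C3/C2 from slide 2 only, a choice made after seeing the data, 95 interactions were above and 37 below 0.

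Of 160 called genes, 53 lost their call or direction under at least 1 setting, as did 7 of 21 interactions. The filter on all 8 arrays gave no value for 40 of the 160 genes and 5 of the 21 interactions. CFLAR turned to -1.65 with the probe brightest on the 8 arrays and to -1.06 with the mean of its probes, and MTL5 to 0.0423 with a filter that leaves another probe. Signals near background limit the genes given as lower bounds.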

Other observations

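Families of genes grouped by symbol after their values were seen are given as counts only, beside 14.8% of all genes higher and 6.16% lower. In TRAIL+C3/C2 against TRAIL, 15 of 38 potassium channel genes were higher and 1 lower, as were 19 and 2 of 63 Rab GTPases. Of 11 WNT ligands 7 were higher, and of 9 synaptotagmins 4, with none lower. Of 13 protocadherins 4 were lower and none higher, and of 433 zinc finger genes 41 were higher (9.47%) and 48 lower (11.1%). Few genes were called among 109 cytosolic ribosomal proteins (5 higher), 47 proteasome subunits (1 lower) and 43 complex I subunits (1 lower).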
